A study of Mus musculus with 7 samples.

Results

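The galectin family was followed in mouse heart as 6 genes, Lgals1, Lgals3, Lgals4, Lgals8, Lgals9 and Lgals3bp. All non-control array probes whose accession mapped to these symbols in the RefSeq gene table were taken, which gave 9 of 56605 probes and 6 of the 23678 genes that were tested. The family was singled out with the contrast between knockout and control hearts already known, in which Lgals4 had one of the deepest falls, so the differences of these 6 genes between the groups are given as a description, without p-values.

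RNA came from the heart apex of male C57Bl/6 mice aged 3 months, with 1 Agilent one-colour array per mouse. The AKT1+AKT2 DKO group (DKO, n = 3) was homozygous for floxed Akt1 (exons 6 and 7) and floxed Akt2 (exons 5 and 6) and heterozygous for MHC-mercremer, a Cre recombinase that tamoxifen activates and that the alpha myosin heavy chain promoter drives in cardiomyocytes. Mice of the control group (n = 4) were heterozygous for MHC-mercremer alone, per the labels. Hydroxytamoxifen was injected into both groups, 500 µg per day for 5 days, and hearts were collected on day 10 after induction. The deletion is thus limited to cardiomyocytes, while the RNA is that of the whole apex, so a smaller number of cells of a type and less RNA per cell cannot be told apart.

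Galectins are small proteins that bind beta-galactose on glycoproteins and glycolipids through a conserved carbohydrate recognition domain. Galectin-1 has a single such domain and acts as a dimer, galectin-3 joins its domain to a flexible tail that lets it form larger complexes, and galectins 4, 8 and 9 carry a pair of different domains joined by a linker. They act outside cells on matrix, integrins and immune receptors, and inside cells galectins 3, 8 and 9 gather on damaged lysosomes and endosomes. In the heart galectin-3 is best known as a product of macrophages and a marker of fibrosis. Lgals3bp encodes a secreted glycoprotein that galectin-3 binds and is no galectin itself.

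All 7 arrays lay on 1 slide read in 1 scan, and 53.0% to 55.8% of spots on DKO arrays and 54.7% to 57.6% on control arrays were well above background, with 0 saturated spots. Arrays of the same group correlated at 0.984 to 0.994 across genes and arrays of different groups at 0.978 to 0.99. The targeted transcripts checked the labels in part. The brightest Akt2 probe averaged 11.64 ± 0.03 in DKO hearts and 13.69 ± 0.07 in control hearts (SD, n = 3 and 4, normalized log2 signal), a 4.13-fold fall (limma, adjusted p = 0.000203 over probes). The other Akt2 probes differed by -2.29 ± 0.10 and -0.68 ± 0.12 (log2, SE). The brightest Akt1 probe averaged 14.65 ± 0.04 in DKO hearts and 14.48 ± 0.06 in control hearts (limma, adjusted p = 0.199), and the other Akt1 probe differed by 0.47 ± 0.16 (adjusted p = 0.139). Whether any Akt probe overlaps a floxed exon was not analysed here. The cardiomyocyte markers were all measured, 16 of 16 being tested, and their summed linear signal was 2679150 to 2986902 in DKO hearts and 2726150 to 2851966 in control hearts.

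Each of the 9 galectin probes exceeded background clearly on all 7 arrays. The members went different ways. Lgals4 was 5.73-fold lower in DKO hearts and Lgals1 1.36-fold lower. Lgals3 was 1.43-fold higher and Lgals8 1.17-fold higher, while Lgals9 and Lgals3bp overlapped between the groups. The median log2 difference of the 6 genes was 0.08, against -0.02 over all 23678 genes. Of the 6 genes, 4 had no overlap between the groups, a state found in 25.7% of all genes. Of the 6, 2 passed an adjusted p of 0.05 in limma, Lgals4 and Lgals1, where 4.70% of all genes did, and both were lower in DKO hearts, as 2.29% of all genes were. By probe, 3 of 9 passed against 4.40% of all probes, and 6 of 9 had no overlap against 25.2%. Since the family was chosen on this contrast, nothing is read from these counts.

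**Figure D1:**
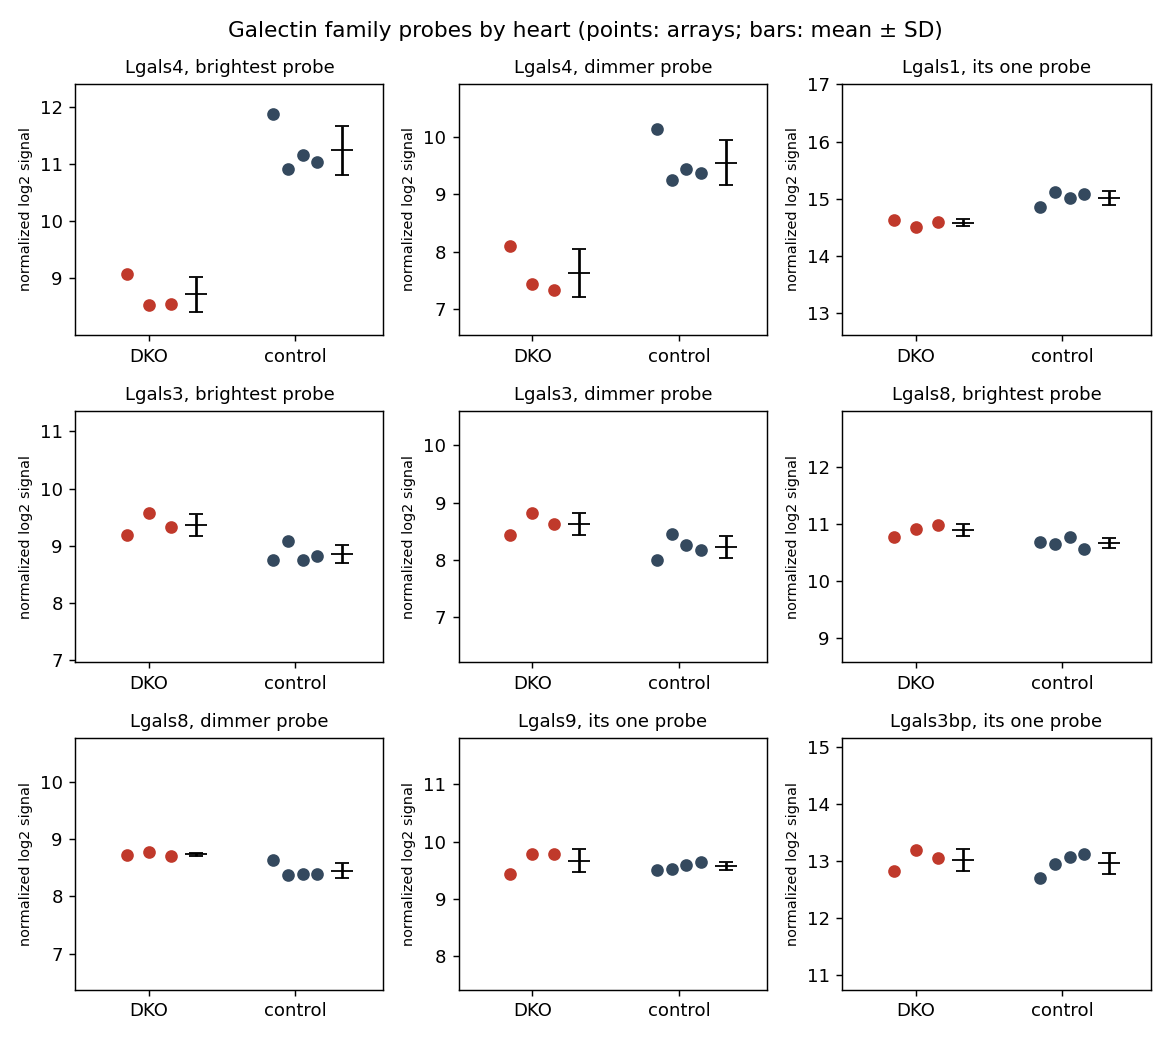
Normalized log2 signal of the 9 galectin family probes (y axis, the same span in every panel) in DKO hearts (left, red, n = 3) and control hearts (right, dark, n = 4). Points are arrays and bars the mean ± SD. Both Lgals4 probes separate the groups by far more than the spread within them (differences of -2.52 and -1.94), whereas Lgals9 and Lgals3bp overlap.

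The promoter windows of the members are shown because the family did not move as a unit. RefSeq windows of GRCm38.p6, from 250 bases before to 50 bases after the start, were found for 5 of the 6 members, Lgals1 having none in the table. Lgals4 (lower in DKO hearts), Lgals3 (higher) and Lgals9 (overlapping) are printed in the direction of transcription, with the matches described afterwards in capitals.
Lgals4, chr7:28833544-28833843, plus strand: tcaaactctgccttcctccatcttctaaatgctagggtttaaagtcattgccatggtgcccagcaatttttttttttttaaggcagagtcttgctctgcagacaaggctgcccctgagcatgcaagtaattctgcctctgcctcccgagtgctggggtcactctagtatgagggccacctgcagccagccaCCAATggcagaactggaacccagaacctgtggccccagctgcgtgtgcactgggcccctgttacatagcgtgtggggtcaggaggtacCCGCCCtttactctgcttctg
Lgals3, chr14:47373610-47373909, plus strand: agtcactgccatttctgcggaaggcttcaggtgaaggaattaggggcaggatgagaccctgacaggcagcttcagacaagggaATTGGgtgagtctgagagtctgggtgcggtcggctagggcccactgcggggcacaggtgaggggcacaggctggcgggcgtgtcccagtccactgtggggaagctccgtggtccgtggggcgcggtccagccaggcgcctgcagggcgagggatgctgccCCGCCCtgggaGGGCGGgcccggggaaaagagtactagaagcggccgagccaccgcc
Lgals9, chr11:78984875-78985174, minus strand: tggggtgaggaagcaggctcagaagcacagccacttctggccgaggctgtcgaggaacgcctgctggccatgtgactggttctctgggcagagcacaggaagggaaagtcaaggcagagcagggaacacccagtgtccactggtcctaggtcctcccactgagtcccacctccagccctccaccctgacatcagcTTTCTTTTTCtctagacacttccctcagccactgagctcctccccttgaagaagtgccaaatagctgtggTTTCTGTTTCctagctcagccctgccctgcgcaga

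Motifs were searched on both strands, and the selection of motifs was made with the values known. The FoxO site GTAAACA, a sequence bound by transcription factors that Akt phosphorylates, was in 0 of the 5 member windows and in 3.65% of 32851 RefSeq windows. The CLEAR element TCACGTGA, bound by the lysosomal regulator TFEB, was likewise in 0 of the 5 (0.974% of all windows), as was the TATA box TATAAA (13.6%). The interferon-stimulated response element, searched as a pair of GAAA blocks with any 2 bases between them, was in 3.44% of all windows and in 1 member window, that of Lgals9, which held 2 matches, both on the opposite strand. The GC box GGGCGG (35.7% of all windows) was in the Lgals4 and Lgals3 windows, with 1 match in Lgals4 and 2 in Lgals3. The CCAAT box was in 3 of the 5 windows, those of Lgals4, Lgals3 and Lgals8, against 37.4% of all windows. The Lgals3 window had 67% G and C and the Lgals4 window 54%, where the median of all windows was 52.7%. A match is a run of letters and not a shown binding site.

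Among the galectins with paired domains, Lgals4 stood out. It encodes galectin-4, which is made mainly by the epithelium of the gut, where it takes part in the apical delivery of glycoproteins. Its brightest probe gave 9.08, 8.54 and 8.55 in DKO hearts, against 11.87, 10.92, 11.15 and 11.03 in control hearts (normalized log2 signal). All 3 DKO hearts lay below the lowest control heart, and control replicate 1 was the highest of its group. The means were 8.72 ± 0.31 in DKO hearts and 11.24 ± 0.43 in control hearts (SD, n = 3 and 4), a log2 difference of -2.52 ± 0.25 (SE of the limma fit). Only 14 of the 23678 tested genes had a larger absolute difference. The dimmer Lgals4 probe gave 8.10, 7.43 and 7.33 in DKO hearts, against 10.14, 9.25, 9.45 and 9.38 in control hearts. It ordered the groups in the same way, again with DKO replicate 1 and control replicate 1 highest in their groups, at a log2 difference of -1.94 ± 0.27 (3.83-fold).

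The Lgals4 difference was seen in each row of the slide. In the first row, with 1 DKO and 3 control arrays, it was -2.80, and in the second row, with 2 DKO arrays and 1 control array, it was -2.11. With single arrays left out it lay between -2.70 and -2.31. The signal in DKO hearts remained well above background on all 3 arrays for both probes, so transcript was still measured there. Of the 18 gut epithelium markers on the array, 12 were above background on no array and 3 were tested, so the Lgals4 signal was not accompanied by most genes of the tissue where it is best known. Those 3 markers summed to 946 to 1060 in DKO hearts and 804 to 1083 in control hearts (linear signal), of which 87.9% to 92.9% came from Gpa33, a gut epithelial surface antigen. One of them, Guca2b, which encodes the gut peptide uroguanylin, was at least 1.84-fold higher in DKO hearts. That bound sets the DKO mean against the control mean with each control value raised to the lowest signal well above background on its array. The Guca2b probe was well above background on 3 DKO arrays and 0 control arrays, so it met the filter through the DKO group alone, and no call is read from its test (limma, adjusted p = 0.0401 with the filter and 0.13 without it).

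Lgals4 lies on chromosome 7 near Akt2, 1 of the 2 targeted genes, with 40 tested named genes between them in the gene order of GRCm38.p6. Of these 40, 6 differed between the groups, 2 higher and 4 lower in DKO hearts, or 15% against 4.70% of all genes (limma, adjusted p below 0.05). These shares are not of like sets, since only 14720 of the 23678 tested genes had a symbol. The typical gene in this stretch moved no more than elsewhere, its median absolute log2 difference being 0.18, as over all genes. The tested neighbour of Lgals4 on the Akt2 side is Ech1, a peroxisomal and mitochondrial enzyme of fatty acid breakdown. Ech1 averaged 15.79 ± 0.11 in DKO hearts and 16.61 ± 0.09 in control hearts, a 1.76-fold fall (adjusted p = 0.00886). Mrps12, a mitochondrial ribosomal protein, fell 2.00-fold (adjusted p = 0.00454). The zinc finger gene Zfp974 fell by 1.37 on the log2 scale (adjusted p = 0.018), being above background on 2 of the 3 DKO arrays. Gmfg, an actin regulator of blood cells, rose 1.95-fold (adjusted p = 0.01), and so did Fbxo27, a ubiquitin ligase subunit that recognises glycoproteins, 2.00-fold (adjusted p = 0.00886).

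The nearest tested gene on the far side of Lgals4, the calpain gene Capn12, differed by -0.23 ± 0.08 and did not pass (adjusted p = 0.136). Lgals7, the galectin gene next to Lgals4, was above background on 0 of the 7 arrays. Whichever array was omitted, Ech1, Mrps12, Gmfg and Fbxo27 still passed (7 fits), while Zfp974 passed in 5 and had an adjusted p of 0.0615 without DKO replicate 2. The remaining called gene, Map3k10, is the tested neighbour of Akt2 and differed by -0.47 ± 0.08 (limma, adjusted p = 0.0297). Map3k10 passed in 2 of those fits, with a highest adjusted p of 0.0995, and had 0.0732 with slide row as a term. The count in the stretch ranged from 4 to 7 over those fits, the lowest count coming from the omission of control replicate 4 or of DKO replicate 2. The groups differ in carrying floxed Akt2 as well as in the deletion meant to remove Akt, and Akt activity was not measured. Linkage to the floxed allele and the loss of Akt thus cannot be told apart for these genes or for Lgals4.

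**Figure D2:**
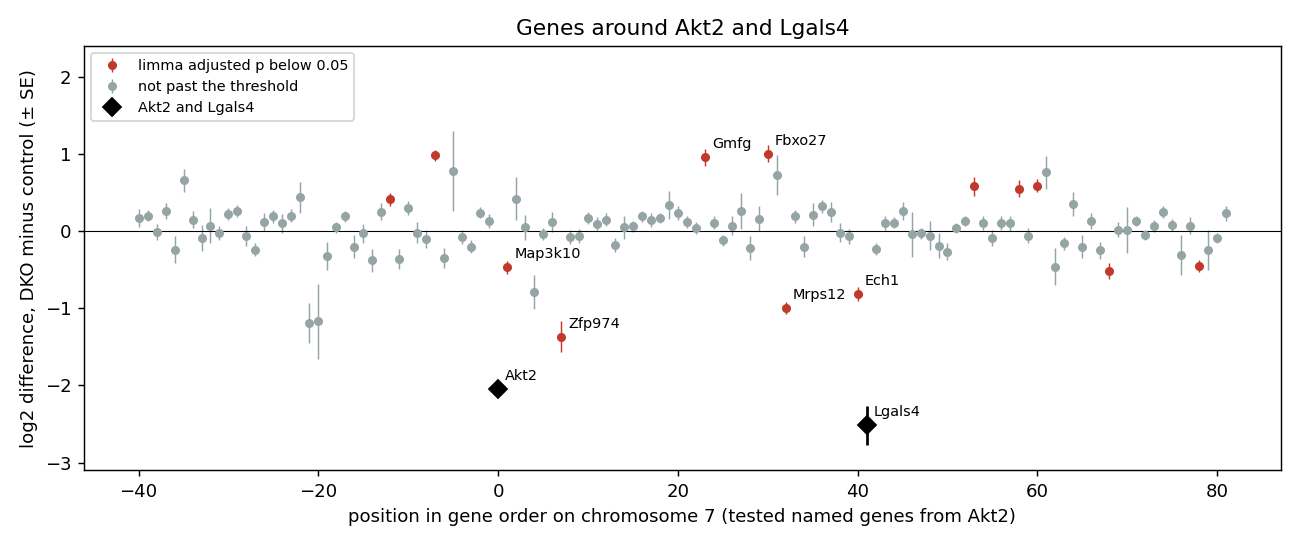
Log2 difference, DKO minus control, with its SE (y axis) for tested named genes of chromosome 7 in gene order, counted from Akt2 at 0 (x axis). Red genes passed an adjusted p of 0.05 in limma, grey ones did not, and black diamonds mark Akt2 at -2.05 and Lgals4 at -2.52. Most genes between them lie near 0, with 6 exceptions that are labelled.

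Lgals8 encodes galectin-8, which detects ruptured endosomes and lysosomes and recruits the autophagy machinery to them. Its brightest probe gave 10.78, 10.92 and 10.99 in DKO hearts, against 10.69, 10.65, 10.77 and 10.57 in control hearts. The groups just failed to touch, since the lowest DKO heart was 10.78 and the highest control heart 10.77. The difference was 0.23 ± 0.09 (log2, SE). The dimmer probe gave 8.73, 8.77 and 8.71 in DKO hearts, against 8.64, 8.37, 8.40 and 8.40 in control hearts, a difference of 0.28 ± 0.09. Here too the DKO hearts were all higher, control replicate 1 coming closest to them.

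Lgals9 encodes galectin-9, a ligand of the T cell receptor Tim-3 that endothelial and myeloid cells make under interferon. It gave 9.43, 9.78 and 9.79 in DKO hearts, against 9.51, 9.52, 9.59 and 9.65 in control hearts. DKO replicate 1 was below all controls and the other DKO hearts above them, and the difference was 0.10 ± 0.11. Without DKO replicate 1 it was 0.22. Interferon response genes were looked at beside it. Of 30 tested, 20 were higher and 10 lower in DKO hearts, with a median of 0.08 against -0.02 over all genes. In limma 0 passed, where 4.70% of all genes did, and 3 had an unadjusted p below 0.05. Such p-values were common over all genes, since the largest of the 3, 0.0472 for Rtp4, had an adjusted p of 0.191. Nothing is read from such counts here or below. The interferon-induced RNA-binding protein Ifit2 differed by 0.40 ± 0.15 (adjusted p = 0.16) and the ADP-ribosyltransferase Parp14 by 0.24 ± 0.09 (adjusted p = 0.169). Summed over the list, linear signal was 57538 to 72072 in DKO hearts and 57676 to 69598 in control hearts.

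Lgals1, the member with a single domain, encodes a galectin that binds integrins and laminin and is made by muscle, vessel wall and stromal cells. Its probe gave 14.63, 14.51 and 14.60 in DKO hearts, against 14.85, 15.12, 15.02 and 15.09 in control hearts. All DKO hearts were lower than all controls, and the groups were narrow. The means were 14.58 ± 0.06 in DKO hearts and 15.02 ± 0.12 in control hearts (SD, n = 3 and 4), a log2 difference of -0.44 ± 0.09. Within the slide rows it was -0.38 and -0.55, and with single arrays left out between -0.49 and -0.40. Markers of stromal and vascular cells, and of cardiomyocytes, were looked at beside it. Of 18 fibroblast markers 17 were higher in DKO hearts, with a median of 0.14, and of 16 endothelial markers all 16 were higher, with a median of 0.19. None of these markers passed in limma, where 4.70% of all genes did. In the same fit 5 fibroblast and 3 endothelial markers had an unadjusted p below 0.05. As for the interferon list, nothing is read from these counts. Their summed linear signals were 251195 to 277626 in DKO hearts and 229604 to 237849 in control hearts for fibroblasts, and 174290 to 177727 in DKO hearts and 146933 to 166252 in control hearts for endothelium. Without their brightest genes, Gsn and Fabp4, the fibroblast sums overlapped, at 151708 to 176451 in DKO hearts and 144526 to 152622 in control hearts, and the endothelial sums did not, at 117080 to 124435 in DKO hearts and 103080 to 113399 in control hearts. The collagen-binding matrix protein gene Dpt differed by 0.36 ± 0.10 (adjusted p = 0.0864) and the endothelial receptor gene Tie1 by 0.27 ± 0.07 (adjusted p = 0.0879). Fbln1, a matrix glycoprotein gene, differed by 0.47 ± 0.13 (adjusted p = 0.0914) and the endothelial receptor gene Tek by 0.20 ± 0.07 (adjusted p = 0.137). Of 16 cardiomyocyte markers 7 were higher and 9 lower in DKO hearts, with a median of -0.04. The part of any of these cells in the Lgals1 level was not tested.

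Lgals3, the member with a tail, was read by a pair of probes. The brightest gave 9.19, 9.57 and 9.33 in DKO hearts, against 8.75, 9.09, 8.75 and 8.82 in control hearts. All DKO hearts were higher, control replicate 2 being closest to them, and the difference was 0.51 ± 0.13. Within the slide rows it was 0.56 and 0.29, and with single arrays left out it lay between 0.41 and 0.60. The dimmer probe is printed at 10 spots of each array, which gives a direct measure of spot error. Its spot means were 8.44, 8.82 and 8.63 in DKO hearts, against 7.99, 8.45, 8.26 and 8.17 in control hearts. On this probe DKO replicate 1 and control replicate 2 met, so the groups overlapped, at a difference of 0.41 ± 0.14. Spots of an array had an SD of 0.064 to 0.13, while arrays of a group had an SD of 0.19 in DKO hearts and 0.19 in control hearts. The spread between arrays of a group was therefore larger than the spread between spots. With 1 array per heart, differences between hearts and between arrays cannot be told apart.

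**Figure D3:**
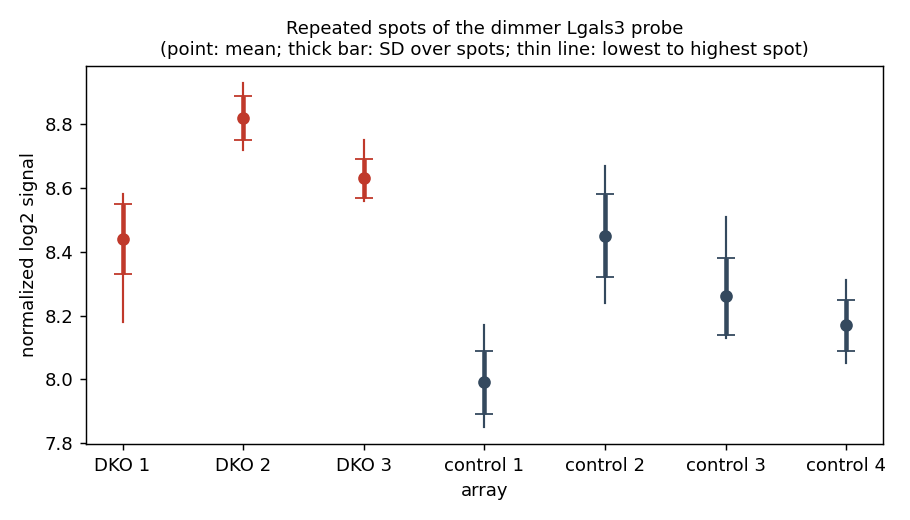
Normalized log2 signal (y axis) of the dimmer Lgals3 probe on each array (x axis, DKO hearts in red, control hearts dark). Points are means over its spots, thick bars the SD over spots and thin lines the lowest and highest spot. DKO replicate 2 at 8.82 and control replicate 1 at 7.99 are the extremes, and DKO replicate 1 at 8.44 meets control replicate 2 at 8.45.

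Macrophage markers were measured because macrophages are a main source of galectin-3. Of 21 tested, 11 were higher and 10 lower in DKO hearts, with a median of 0.01 and a summed linear signal of 93114 to 115046 in DKO hearts and 87975 to 110847 in control hearts. Ly6c2 made up 41.7% to 52.1% of that signal. Without Ly6c2 the sums also overlapped, at 48038 to 55056 in DKO hearts and 51314 to 59791 in control hearts. Gpnmb, a glycoprotein of lipid-laden and lysosome-stressed macrophages, was at least 1.72-fold higher in DKO hearts. Its probe was well above background on 3 DKO arrays and 0 control arrays, so it too met the filter through the DKO group alone, and no call is read from its test (limma, adjusted p = 0.0154 with the filter and 0.0656 without it). Of the other macrophage markers 0 passed in limma, against 4.70% of all genes. In the same fit 4 of the 21, Gpnmb included, had an unadjusted p below 0.05. Besides Gpnmb these were Lyz2, with a log2 difference of 0.33, and Cx3cr1 and Ccr2, at -0.58 and -0.48.

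Lgals3bp, which encodes the secreted partner of galectin-3, gave 12.82, 13.20 and 13.05 in DKO hearts, against 12.70, 12.95, 13.07 and 13.12 in control hearts. The ranges overlapped almost wholly, and the difference was 0.06 ± 0.13. Its sign depended on the arrays, at 0.16 without DKO replicate 1 and -0.03 without DKO replicate 2.

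Of the galectin genes outside the family as defined, 5 of 6 had probes matched here, for Lgals2, Lgals7, Lgals12, Lgalsl and Grifin, and Lgals6 had none. Lgals2, Lgals7 and Grifin were above background on 0 of the 7 arrays. Lgalsl, a galectin-related protein that does not bind lactose, averaged 10.89 ± 0.08 in DKO hearts and 10.74 ± 0.13 in control hearts (SD, n = 3 and 4; limma, adjusted p = 0.378). Lgals12, a galectin of adipocyte lipid droplets, averaged 5.67 ± 0.27 in DKO hearts and 5.73 ± 0.23 in control hearts (adjusted p = 0.856). Neither passed, and of the adipocyte markers limma called 0 of 4 tested, against 4.70% of all genes, with 1 below 0.05 before adjustment. The adipocyte protease gene Cfd differed by 1.04 ± 0.44 (adjusted p = 0.191) and the lipid droplet gene Plin4 by -0.12 ± 0.09 (adjusted p = 0.456). The galectin content of these hearts was thus read from Lgals1, Lgals3, Lgals4, Lgals8, Lgals9, Lgals12 and Lgalsl.

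Genes of the response to damaged lysosomes, in which galectins 3, 8 and 9 act, were looked at next. Of 34 tested, 5 rose and 0 fell (limma, adjusted p below 0.05, against 2.41% of all genes rising), with a median log2 difference of 0.16. This list, like the others, was chosen with earlier results of these data known, so nothing is read from that count. Fbxo27, which tags glycoproteins exposed in ruptured lysosomes, rose 2.00-fold (adjusted p = 0.00886), and lies in the stretch between Akt2 and Lgals4. The lysosomal protease Ctsl rose by 0.96 ± 0.11 (adjusted p = 0.0106). The autophagy receptors Sqstm1, Calcoco1 and Optn rose by 0.54 ± 0.07, 0.56 ± 0.08 and 0.58 ± 0.11 (adjusted p = 0.015, 0.0192 and 0.0321). Sqstm1 averaged 15.65 ± 0.05 in DKO hearts and 15.11 ± 0.07 in control hearts. With arrays left out in turn, Fbxo27 passed 7 of 7 fits, Ctsl in 6, Sqstm1 in 4, Calcoco1 in 3 and Optn in 2. Their highest adjusted p were 0.0529 for Ctsl, 0.0648 for Sqstm1, 0.0657 for Calcoco1 and 0.106 for Optn, all without DKO replicate 1. The groups were uneven over the slide rows, and with slide row as a term Fbxo27 and Ctsl still passed (adjusted p = 0.0378 and 0.0399) while Sqstm1, Calcoco1 and Optn did not (0.0517, 0.0599 and 0.0683). Without the filter Fbxo27 alone of the 5 passed (0.0456).

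Glycoproteins that galectins bind, such as integrins, matrix proteins and immune receptors, had 2 of 31 tested members higher and 0 lower in limma, where 2.41% of all genes were called higher and 2.29% lower, with a median of 0.14. Cd63, a tetraspanin of lysosomes and exosomes, averaged 15.02 ± 0.08 in DKO hearts and 14.43 ± 0.05 in control hearts, a rise of 0.59 ± 0.07 (adjusted p = 0.012). P4hb, a disulfide isomerase that galectin-9 holds at the T cell surface, rose by 0.55 ± 0.09 (adjusted p = 0.0278). Cd63 passed in 6 and P4hb in 3 of the 7 fits with an array left out, with highest adjusted p of 0.0577 without DKO replicate 1 and 0.0901 without DKO replicate 2. With slide row as a term P4hb no longer passed (adjusted p = 0.0751), and without the filter neither did (0.0721 for Cd63 and 0.119 for P4hb).

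Enzymes that build galectin ligands formed further lists, and nothing is read from their counts of calls. Of 25 tested genes of N-glycan branching and poly-LacNAc synthesis 1 fell and 0 rose, where 2.29% of all genes fell and 2.41% rose, with a median of 0.06. Mgat3, which adds the bisecting GlcNAc that blocks further branching, averaged 5.95 ± 0.21 in DKO hearts and 6.72 ± 0.13 in control hearts, a fall of 1.72-fold (adjusted p = 0.023). It passed in 3 of the 7 fits with an array left out, with an adjusted p of 0.0732 without DKO replicate 2. The Mgat3 call was also lost with quantile normalization (adjusted p = 0.0588), the authors' deposited values (0.06), normexp (0.104, or 0.127 with quantile normalization), no filter (0.0977) and slide row as a term (0.071). Sialic acid can mask galactose from some galectins. Of 19 genes that add or remove it, 0 passed in limma, where 4.70% of all genes did, and 6 had an unadjusted p below 0.05. The sialyltransferase St6galnac6 differed by -0.35 ± 0.09 (adjusted p = 0.0826) and the sialic acid synthase Nans by 0.23 ± 0.07 (adjusted p = 0.113).

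**Figure D4:**
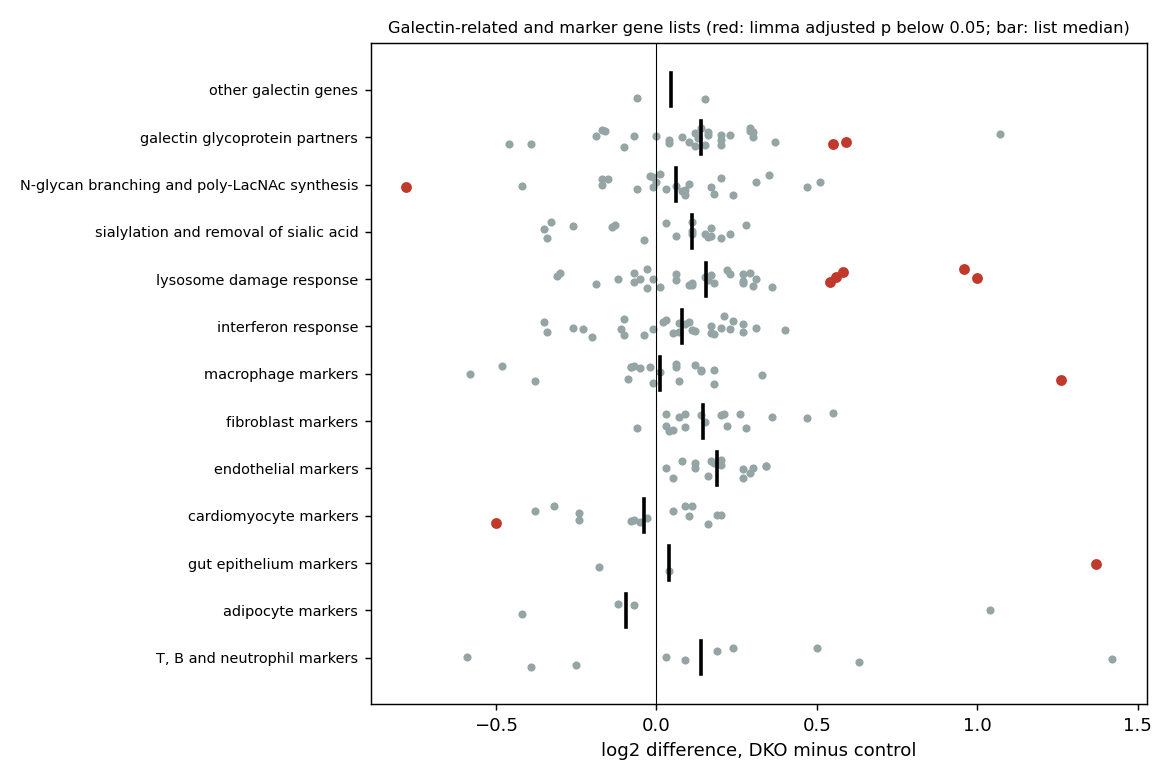
Log2 difference, DKO minus control (x axis), of every tested gene in the lists (rows). Red points passed an adjusted p of 0.05 in limma, grey points did not, and black bars are list medians. The lysosome damage list holds 5 of the red points, all to the right, and the fibroblast and endothelial lists lie almost wholly right of 0 without a red point. The red points of the macrophage and gut epithelium lists are Gpnmb and Guca2b, which met the filter through the DKO group alone.

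Across the 7 arrays, Slc9a7, a sodium-proton exchanger of the Golgi, had the pattern most like Lgals4 among 13735 named genes, with a Pearson r of 0.998 over arrays and 0.97 for deviations from the group means. Dpysl4 and Rnf111 came next at 0.991 and 0.9908. For Lgals1 these were Prkaca, Ndufaf7 and Lbh (r of 0.9907, 0.9896 and 0.989), and for Lgals3 Nr1h2, Pgap6 and Nsmce2 (0.9903, 0.9844 and 0.9819). Fst, Dnajc2 and Arap3 were most like Lgals8 (0.9933, 0.9926 and 0.9748), and Gsap, Epop and Pcdh18 most like Lgals9 (0.9865, 0.9689 and 0.9679). Postn, Tbxa2r and Vamp7 were most like Lgals3bp (0.9835, 0.9819 and 0.9789). Each is the best of many genes over few arrays, and the arrays share the group difference, so these values only describe the pattern.

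Within groups the members did not vary as one. Over the 7 arrays, deviations from the group means of Lgals3bp and Lgals9 correlated at 0.78, whereas those of Lgals3bp and Lgals4 correlated at -0.87. Control replicate 1 had the highest Lgals4 and the lowest Lgals3bp of the controls, and DKO replicate 1 likewise among the DKO hearts. The order did not run this way among control replicates 2 to 4, where replicate 2 had the least of both, at 10.92 for Lgals4 and 12.95 for Lgals3bp. Lgals1 and Lgals3 deviated almost independently, at 0.18.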

How the data were processed

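Per the file headers, Agilent arrays of 7 hearts were quantified with Feature Extraction 12.0.3.1, their design being annotated on mm9. For each array the deposited file gives each spot's background-subtracted processed signal, median signal and local background as intensities. In the authors' deposited table, log2 values matched quantile normalized, probe-centred scanner values, each column having a median of 0 (slopes from 0.9997 to 1). The sources used here do not name its software.

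Control and outlier-marked spots were left out. The 75th percentile of each array was subtracted from log2 of the processed signal and the mean percentile, 9.14, added back. Of 56605 non-control probes, 32994 were named through their accession and RefSeq (GRCm38.p6), and 30466 were well above background on at least 3 arrays and complete. The brightest probe stood for each of 23678 genes. Of these, 14720 had a gene symbol and the rest had none. Shares over all genes cover both kinds, while the lists and the chromosome 7 stretches hold named genes only. The groups were set against each other in limma 3.58.1 (R 4.3.3), with group as the single term and two-sided Benjamini-Hochberg adjusted p-values at a threshold of 0.05, after tests on simulated data. Each array is a separate mouse, and precision is limited by how many arrays there are. The members and lists were chosen with earlier results of these data known. Named genes are the members, other galectin genes, Akt1, Akt2 and the called genes of each list. Where 0 were called, the 2 with the smallest p are named. Also named are the neighbours of Lgals4, the called genes between it and Akt2, and the 3 genes most alike each member. Map3k10, Rtp4, Lyz2, Cx3cr1, Ccr2 and Ms4a1 were named after their values were seen. Alternatives covered normalization, normexp (offset 50, on the median signal), filters, the authors' values, probe averaging, variance models, array weights, blocks and left-out arrays. List sums without the brightest gene were added after the data were seen.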

Additional observations from a re-analysis of the deposited data

Results flagged for a closer look

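Of 33 sets of 4 control values checked for an array far from the others, 1 was marked, where chance marks about 1 in 20. The dimmer Lgals8 probe was 8.64 in control replicate 1, against 8.37 to 8.40 in the other control hearts, a gap of 0.889 of the range. The brightest Lgals8 probe did not set control replicate 1 apart.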

How the results depend on the processing

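The differences of the 6 galectin genes moved by less than the spread between replicates under all 18 alternatives. Lgals4 stayed between -2.70 and -2.23, Lgals1 between -0.49 and -0.40, Lgals3 between 0.38 and 0.60, Lgals8 between 0.18 and 0.29 and Lgals9 between 0.03 and 0.22, while Lgals3bp lay between -0.03 and 0.16. Of the 2 members called, Lgals4 alone was called with normexp, without a filter and with slide row as a term. The same held without control replicate 3 or 4 or any 1 of the DKO replicates. Without control replicate 2, Lgals3 was called in place of Lgals1. The family was chosen on this contrast, so these calls test none of the members and nothing is read from them.

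Counts of called genes depended on the setting. Of all genes, 549 were called with normexp, 709 with normexp and quantile normalization, 121 without a filter, 1680 with array weights, 2007 with a trended variance and 288 with slide row as a term, against 1114, and single arrays left out gave 173 (without DKO replicate 1) to 1172 (without control replicate 2). Omitting control replicate 1 gave 748, and omitting control replicate 3 or 4 or any DKO replicate gave at most 458. Over the lists together the 11 calls became 6 with normexp, 1 without a filter and 4 with slide row, and 1 (without DKO replicate 1) to 11 with arrays left out. The 11 include Gpnmb and Guca2b, which met the filter through the DKO group alone, and nothing is read from their number. Between Akt2 and Lgals4 the 6 calls became 3 without a filter, and 4 to 7 with arrays left out.

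With the replicate number as a block, 1 gene was called in all, 0 in the lists, 0 between Akt2 and Lgals4 and 0 members. Whether the numbers pair the hearts cannot be told from these values. Same-numbered DKO and control hearts correlated at 0.103, 0.00602 and 0.0836 in their deviations from the group means. DKO replicate 2 correlated best with control replicate 1. The other DKO hearts correlated best with their own number. Quantile normalization called 1425 probes, against 1339. The cause of these changes was not tested.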

Other observations

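The share of called genes was also counted in stretches beside the one between Akt2 and Lgals4, chosen after its values were seen. Of the 40 tested genes beyond Lgals4, 5 passed (12.5%), 3 of them higher and 2 lower in DKO hearts, and of the 40 before Akt2, 2 passed (5.0%), both higher, against 4.70% of all genes (limma, adjusted p below 0.05). The median log2 differences were 0.03 and 0.08. Before Akt2, Blvrb, which encodes a biliverdin reductase and was singled out after its value was seen, averaged 11.29 ± 0.04 in DKO hearts and 10.31 ± 0.08 in control hearts (SD, n = 3 and 4; limma, adjusted p = 0.004). Why the share is higher on the Lgals4 side was not tested.

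Neutrophil, T and B cell markers had 0 of 10 calls in limma, against 4.70% of all genes. They had 3 at an unadjusted p below 0.05 and a median of 0.14. Their summed linear signal was 30510 to 39679 in DKO hearts and 39768 to 60101 in control hearts, but 89.1% to 94.7% of it was the signal of 1 gene, Csf3r. Without Csf3r the sums overlapped, at 2668 to 3528 in DKO hearts and 2811 to 3771 in control hearts, and 7 of the 10 genes were higher in DKO hearts. Among these 7, Ms4a1 was well above background on 3 DKO arrays and 0 control arrays, so it met the filter through the DKO group alone. Ms4a1 is also among the 3 with an unadjusted p below 0.05, and nothing is read from these counts. The neutrophil receptor gene Csf3r, with the smallest p of the list, differed by -0.59 ± 0.17 (adjusted p = 0.0986), and the B cell receptor component gene Cd79b by 0.63 ± 0.20 (adjusted p = 0.11). Of the cardiomyocyte markers 1 of 16 passed, against 4.70% of all genes, and nothing is read from that count. It was the calsequestrin gene Casq2, which fell by 0.50 on the log2 scale (limma, adjusted p = 0.0349). Casq2 passed in 0 of the 7 fits with an array left out.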
